A study of Mus musculus with 12 samples.

Results

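The subventricular zone of old mice was set against that of mature adults: the 3 libraries of 22 months and the 3 of 6 months, 6 of the 12 libraries of an age series that also holds 2 and 18 months. Choosing 6 months as the baseline leaves the 2-month libraries out of the comparison, and all 15663 genes that passed a filter on low counts were compared. The mice of both ages were male and wild type, and a strain (C57BL/6) is labelled at 2 months alone. RNA was isolated with Trizol from the dissected zone after dissociation to single cells, so each library is a mixture of every cell type in the dissection. Whether the replicates of one age are different mice is not labelled, and the p-values therefore describe the variation among these libraries, part of which may be technical.

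The subventricular zone lines the lateral ventricle of the adult rodent brain and holds neural stem cells, which are astrocyte-like cells that pass between a quiescent and a dividing state. Activated stem cells give rise to transit-amplifying progenitors, and these to neuroblasts that migrate to the olfactory bulb, while a smaller output becomes oligodendrocytes. The niche also holds ependymal cells, vessels, microglia and, at its border, neurons of the striatum, and with age its production of new neurons is known to decline.

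The defining markers of the tissue were present at both ages. Gfap, Slc1a3, Foxj1, Dcx, Egfr and Sox2 were all detected in all 6 libraries, with Sox2, a transcription factor of stem and progenitor cells, at 579, 683 and 668 normalised counts at 22 months, against 533, 593 and 575 at 6 months. Recovered reads per library were 7033545, 6381390 and 8992891 at 22 months, against 9183822, 15962517 and 10513920 at 6 months. A count of 0 allows up to 3 reads, which is between 3.11 and 4.41 normalised counts at 22 months and between 1.74 and 3.06 at 6 months (counting error only). Normalised counts are reads divided by the size factor of the library, as the authors deposited them, and they are not per length, so levels of different genes are not compared. Log2 values of libraries correlated across genes at 0.984 to 0.990 within 22 months, 0.989 to 0.994 within 6 months and 0.975 to 0.985 between the ages, and genes are not independent replicates.

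At 22 months, many transcripts of interferon-responsive genes, MHC class I presentation, complement and microglia were higher than at 6 months, and many of the cell cycle, of myelinating oligodendrocytes and of several glucocorticoid-responsive genes were lower. In all, 3480 of 15663 tested genes were called (22.2%) at a limma adjusted p under 0.05, of which 1659 were higher (10.6%) and 1821 lower (11.6%). Most differences were modest. A change of at least 1.5-fold was seen in 687 called genes (280 higher, 407 lower) and of at least 2-fold in 220 (107 higher, 113 lower), and the median size of a called change was 0.34 on the log2 scale. The 3 libraries of one age did not overlap those of the other in 5829 genes (37.2%), with 19.7% of tested genes higher and 17.5% lower in that sense. The count of calls rested in part on single libraries, being 1790 without replicate 2 and 1925 without replicate 3 of 6 months, and 1464 genes were called whichever of the 6 libraries was left out.

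The comparison moved with transcript length. Reads on transcripts shorter than 1500 nt made up 7.10%, 7.18% and 7.19% of the 22-month libraries, against 6.40%, 5.80% and 5.85% of the 6-month libraries. Reads on transcripts longer than 6000 nt made up 20.9%, 20.5% and 20.4% at 22 months, against 22.8%, 25.2% and 24.8% at 6 months. The ages did not overlap in either share, and 6 months replicate 1 lay nearest to the 22-month libraries in both. Across 14853 genes with a known length, the log2 fold change correlated with length at a Spearman's rho of -0.49 and with GC content at 0.10. Of genes under 1000 nt, 31.8% were higher and 0.864% lower, and of genes of 8000 nt or more, 1.12% were higher and 59.8% lower. With a smooth trend over length and GC content removed from each library, 1993 genes were called (13.4% of 14853), 1167 higher (7.86%) and 826 lower (5.56%). Higher genes were then 58.6% of the calls, against 47.7% without that step, and 700 higher and 709 lower genes were called in the same direction both ways. The part of length in any single result was not tested.

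**Figure D1:**
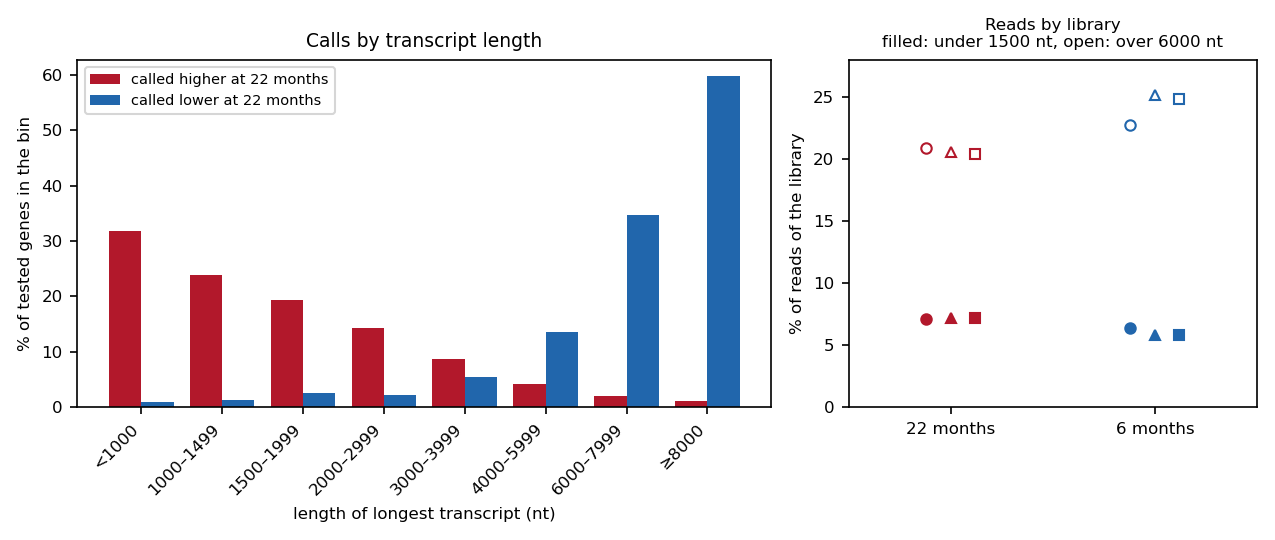
Left, the percentage of tested genes called higher (red) or lower (blue) at 22 months in bins of the length of the longest transcript in nt. Right, the percentage of each library's reads on transcripts under 1500 nt (filled) and over 6000 nt (open), with 22 months left of 6 months and replicates 1, 2 and 3 as circle, triangle and square. Among short transcripts calls were mostly higher and among long ones mostly lower, with 31.8% higher and 0.864% lower under 1000 nt, and 1.12% higher and 59.8% lower at 8000 nt or more.

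Interferon-responsive transcripts were higher at 22 months, most of all in one library. Type I and type II interferons act through STAT and IRF factors on a shared set of antiviral genes, many of which carry the interferon-stimulated response element in their promoters. Of 37 tested members of the list, 21 were higher, 0 were lower and 16 did not pass, with a median log2 fold change of 1.26, against 0.02 over all tested genes. As many (21) were higher once the length and GC trend was removed. Without 22 months replicate 1 the count was 13 and the median 0.55. The summed level of the list was 11505, 3329 and 3796 at 22 months, against 2144, 2303 and 2592 at 6 months. Replicate 1 of 22 months thus stood far above the other libraries, while replicates 2 and 3 also lay above every 6-month library.

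Bst2 (chromosome 8, 71534255 to 71537472), which encodes tetherin and holds budding viruses at the cell surface, had 252, 57.3 and 69.4 normalised counts at 22 months, against 16.3, 13.4 and 25.5 at 6 months. Its log2 fold change was 2.43 ± 0.43 (limma adjusted p = 0.00112), and 1.77 without 22 months replicate 1. Oasl2, of the oligoadenylate synthetase family, had 849, 119 and 77.7 at 22 months, against 16.3, 24.97 and 42.2 at 6 months, a change of 2.90 ± 0.59 (limma adjusted p = 0.00300). It was the largest change in the list, and 1.85 without 22 months replicate 1. Ifit1, a sensor of foreign RNA caps, had 283, 36.7 and 56.96 at 22 months, against 17.3, 18.00 and 28.1 at 6 months, and Isg15, a ubiquitin-like modifier, had 245, 38.2 and 37.3 at 22 months, against 16.3, 18.6 and 21.96 at 6 months. In all 4 genes each 22-month library exceeded each 6-month library, and the value of replicate 1 was several times those of replicates 2 and 3.

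Lgals3bp, a secreted glycoprotein that binds galectins, had 959.5, 294 and 365 at 22 months, against 109, 116 and 139 at 6 months, a change of 1.95 ± 0.32 (limma adjusted p = 8.02e-04). Ifitm3, a membrane protein that blocks virus entry, had 486, 206 and 254 at 22 months, against 92.7, 102 and 100.2 at 6 months, a change of 1.57 ± 0.21 (limma adjusted p = 1.77e-04). Both calls held without any single library, and without 22 months replicate 1 the changes were 1.43 and 1.21. Ifi27l1, Usp18 (which removes Isg15 from proteins), Rtp4, Trim30a, Irgm1 and Ifi27l2a were also higher in every left-out-library fit, with log2 fold changes of 1.49, 2.11, 1.98, 1.39, 1.26 and 1.80. Calls that rested on 22 months replicate 1 were those of Irf7 (2.42), an inducer of interferon genes, Oas1a (2.35), Rsad2 (1.27), the GTPases Gbp2, Gbp3 and Gbp4, Irf9 and Ddx58, each no longer called without it and, except Irf7, without at least 1 other library. Oas1a and its neighbour Oas1g (69.1, 8.81 and 12.4 at 22 months, against 7.13, 3.48 and 0 at 6 months) are similar genes, so the reads may be shared between them.

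Promoter stretches of 5 members are shown because these genes were called higher and have a response element in the window. The window is the 250 bases before the gene's start in RefSeq on GRCm38.p6. Each line gives up to 60 bases, 5′ to 3′ on the gene's strand, and the capitals mark every match to the core of the response element, GAAA and GAAA with NN between them (TTTC and TTTC on the other strand), where overlapping matches run together.
Bst2 (chr8:71537562-71537621, minus strand): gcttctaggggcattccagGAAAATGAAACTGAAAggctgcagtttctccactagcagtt
Ifit1 (chr19:34640779-34640838, plus strand): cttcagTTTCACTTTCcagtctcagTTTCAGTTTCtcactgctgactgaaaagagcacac
Isg15 (chr4:156200850-156200909, minus strand): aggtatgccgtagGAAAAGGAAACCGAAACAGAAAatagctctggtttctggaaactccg
Gbp3 (chr3:142559980-142560039, plus strand): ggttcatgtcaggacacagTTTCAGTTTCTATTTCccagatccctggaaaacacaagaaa
Trim30a (chr7:104465195-104465254, minus strand): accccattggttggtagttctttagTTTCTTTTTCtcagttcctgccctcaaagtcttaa
Of the 25 tested members of the interferon list with a promoter in the table, 13 held the core (52.0%), and so did 9 of the 16 called ones (56.2%). It was found in 3.46% of the 27025 genes with a promoter. The list was chosen for interferon-responsive genes, many of which carry this element, so its share does not bear on the age difference. A match is a description of the letters in this window, not a shown binding site.

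Most genes of MHC class I presentation were higher at 22 months. Class I molecules pair a heavy chain with beta-2-microglobulin and show peptides, cut by the immunoproteasome and carried by the TAP transporter, to CD8 T cells. Of 17 tested members, 14 were higher, 0 lower and 3 did not pass (median log2 fold change 1.34, and 1.22 once the length and GC trend was removed, when 11 were higher). B2m (chromosome 2, 122147687 to 122153082), the light chain, had 1790.0, 736 and 796 normalised counts at 22 months, against 425, 354 and 332 at 6 months. The change was 1.46 ± 0.24 (limma adjusted p = 6.44e-04), and 1.05 without 22 months replicate 1. The heavy chain H2-K1 had 1879.9, 965 and 840.0 at 22 months, against 476, 449 and 434 at 6 months, a change of 1.34 ± 0.23 (limma adjusted p = 8.93e-04), and 0.99 without that library. H2-D1 had 1519, 811 and 730.2 at 22 months, against 380.1, 373 and 340.0 at 6 months, a change of 1.40 ± 0.22 (limma adjusted p = 5.45e-04). In these genes replicate 1 of 22 months stood well above replicates 2 and 3, and every 22-month library was above every 6-month one.

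H2-Q7, H2-Q4 and H2-T23, which encode nonclassical class I chains, rose by 1.49, 1.37 and 1.38 on the log2 scale. The H2 genes are close copies of each other, so single values may include reads of a neighbour. The immunoproteasome subunits Psmb8 and Psmb9 rose by 1.43 and 1.69, and the peptide transporter subunit Tap1 by 1.28. Psmb9 had 50.8, 29.4 and 25.9 at 22 months, against 11.2, 5.81 and 14.1 at 6 months. Smaller rises were called for Psmb10 (0.54), Tapbp (0.42), Tap2 (0.54) and Tapbpl (0.41), of which Tap2 and Tapbpl, like the class I activator Nlrc5 (1.46), lost the call without 22 months replicate 1 and without several other libraries. H2-T22, H2-M3 and the trimming peptidase Erap1 did not pass. The summed level of the list was 10074, 5265 and 4839 at 22 months, against 2801, 2660.3 and 2635 at 6 months. The B2m window also held the response element core, as did 3 of 14 tested members with a promoter (21.4%), shown in capitals as above.
B2m (chr2:122147523-122147582, plus strand): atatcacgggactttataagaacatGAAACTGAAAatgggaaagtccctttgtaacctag

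Class II presentation, which in the brain marks activated antigen-presenting cells, gave 0 calls by limma among 6 tested members, with 1 at an unadjusted p under 0.05, and 0 called by edgeR and 0 by DESeq2. Without replicate 3 of 22 months limma called 1 higher, and without replicate 1 of 6 months 1 higher and 1 lower. Cd74, the invariant chain, had 56.1, 32.3 and 11.4 at 22 months, against 23.4, 8.71 and 7.91 at 6 months (limma adjusted p = 0.145). Of 22 lymphocyte markers 3 passed the filter and 0 were called by limma (1 at an unadjusted p under 0.05, and 0 called by edgeR and 0 by DESeq2), with 1 called higher without replicate 3 of 22 months. Cd4, a T cell co-receptor that microglia can also express, had 889, 984 and 906 at 22 months, against 901, 892 and 839 at 6 months, a log2 fold change of 0.08 ± 0.08. Lck, a T cell kinase, had 32.6, 38.2 and 22.8 at 22 months, against 20.4, 23.2 and 14.1 at 6 months, a log2 fold change of 0.67 ± 0.27 that did not pass (limma adjusted p = 0.0805). Cd3e, a T cell receptor subunit, was listed at 2.61, 0 and 0 at 22 months, against 0 in each 6-month library. At this depth a difference in Cd3e was not detectable. Ccl5, a chemokine of T cells, was under the filter with 22.2, 2.94 and 3.11 at 22 months, against 2.04, 1.74 and 0 at 6 months, again highest in 22 months replicate 1. The part of lymphocytes in the interferon and class I values was not tested.

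Many complement and microglial transcripts were higher at 22 months. Complement proteins tag synapses and debris for microglia, the resident macrophages of the brain, which make C1q and Ctss. C3 (chromosome 17, 57203967 to 57228136), the central complement component, had 471, 279 and 304 normalised counts at 22 months, against 81.5, 102 and 148 at 6 months, a change of 1.66 ± 0.20 (limma adjusted p = 9.10e-05), and C4b had 2173, 1672 and 1652 at 22 months, against 766, 776 and 895 at 6 months, a change of 1.16 ± 0.13 (limma adjusted p = 5.58e-05). C4a had a like change (1.25 ± 0.13), and the C4a and C4b genes are near-identical copies that cannot be told apart with certainty here. The C1q chains C1qa, C1qb and C1qc rose by 0.78, 0.78 and 0.61. Of 19 tested complement genes 8 were higher, 1 (Cr1l) lower and 10 did not pass. The higher count was 7 or 8 whichever library was left out, the call of Cr1l was lost without replicate 2 or 3 of 22 months or replicate 2 or 3 of 6 months, and once the length and GC trend was removed there were 8 higher and 0 lower.

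Lyz2 (chromosome 10, 117277541 to 117282272), the lysozyme of macrophages, had 220.3, 197 and 186 normalised counts at 22 months, against 82.6, 58.6 and 57.1 at 6 months, a change of 1.61 ± 0.14 (limma adjusted p = 3.85e-06). Its close copy Lyz1, with which reads may be shared, had 211, 203 and 195 at 22 months, against 80.5, 60.96 and 57.98 at 6 months. Clec7a, a receptor that marks activated microglia, had 65.2, 47.01 and 42.5 at 22 months, against 8.15, 4.06 and 8.79 at 6 months, a change of 2.75 ± 0.30 (limma adjusted p = 3.67e-05). All 3 genes were separated fully between the ages, and each stayed called whichever library was left out. Cd52 (1.90), Ctsz (0.63), Ctsd (0.54), Mpeg1 (0.68) and Apoe (0.47), a lipid carrier that astrocytes also make, rose as well. Of 20 tested activated-microglia markers 14 were higher, 0 lower and 6 did not pass (median 0.59), and with the trend removed 12 higher and 0 lower.

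Among 24 markers of microglia at large, 14 were higher, 0 lower and 10 did not pass (median 0.41). The higher count was 9 without replicate 3 of 6 months. Without replicate 1 of 22 months it was 10, with a median of 0.28. With the trend removed there were 10 higher and 0 lower. Ctss had 1388, 1052 and 979 at 22 months, against 662, 539 and 587 at 6 months, a change of 0.92 ± 0.10 (limma adjusted p = 5.84e-05). Trem2, a lipid-sensing receptor needed for microglial activation, rose by 0.96 ± 0.16, and Sfpi1, the table's symbol for the microglial transcription factor Spi1, by 0.98 ± 0.22. Receptors of the resting state did not pass: Cx3cr1 had 631, 567 and 610.0 at 22 months, against 579, 535 and 555 at 6 months and P2ry12 had 481, 382 and 395 at 22 months, against 389, 322 and 394 at 6 months. The ages overlapped in both genes. The summed level of the microglia list was 13101, 12064 and 11486 at 22 months, against 9867, 9087 and 8809 at 6 months. In bulk tissue, more cells of a type and more RNA per cell cannot be told apart, and this holds for every cell-type group here.

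**Figure D2:**
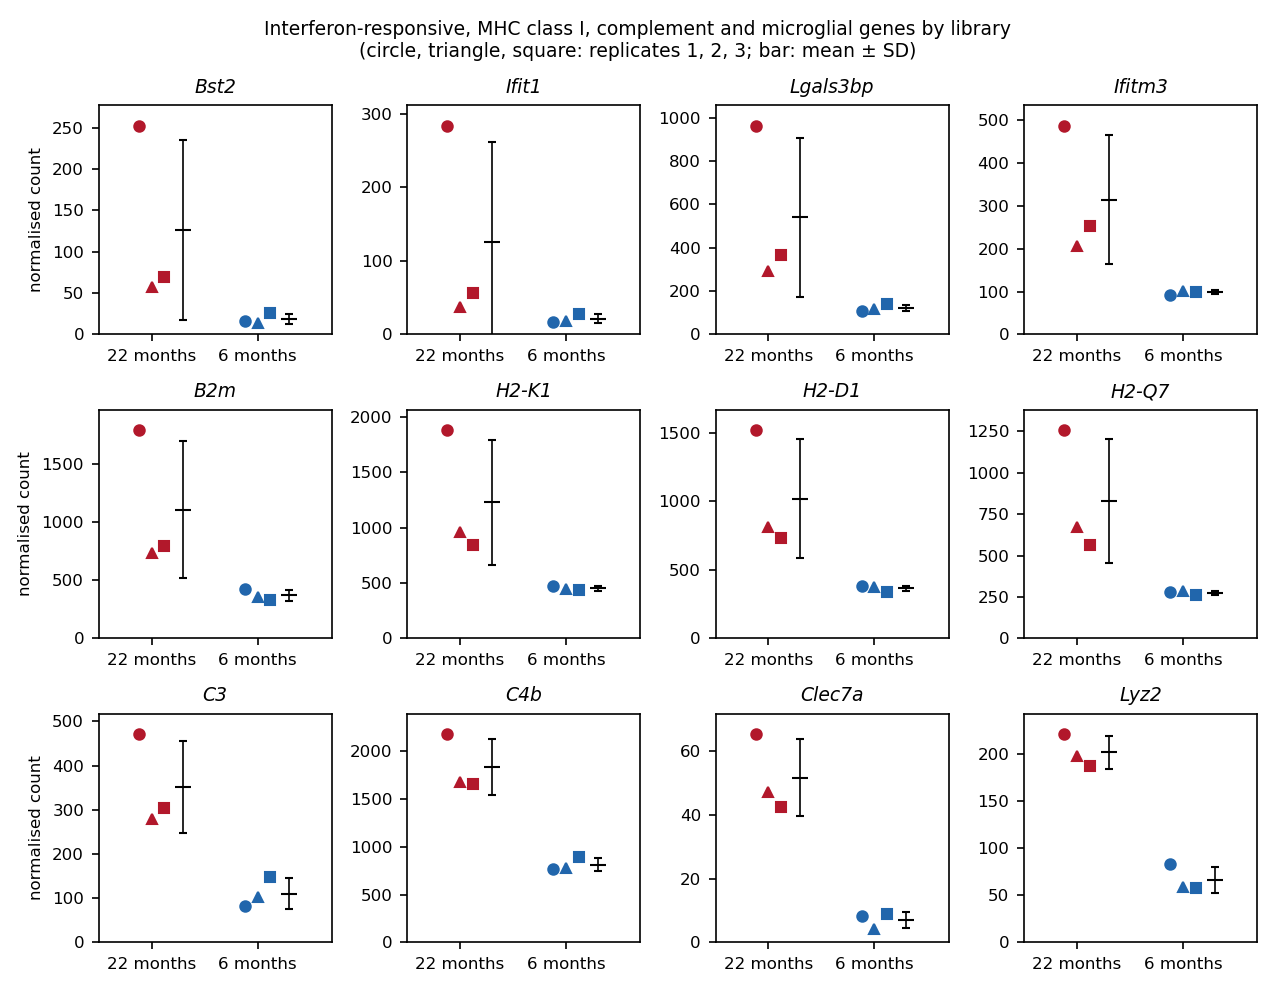
Normalised counts of 12 genes in each library, 22 months (red) left of 6 months (blue), with replicates 1, 2 and 3 as circle, triangle and square and the mean ± SD (n = 3) beside them; axes start at 0, and the lower end of the Ifit1 bar at 22 months lies under the axis. All 12 genes are separated between the ages, and replicate 1 of 22 months is the highest library in each of the 12. In proportion it stands furthest above replicates 2 and 3 in the interferon-responsive and MHC class I genes. B2m, for example, is at 1790.0, 736 and 796 at 22 months, against 425 or less at 6 months.

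Many transcripts of dividing cells were lower at 22 months. The list holds mitotic kinesins and kinases, replication factors and cyclins. Of 34 tested members 0 were higher, 14 were lower and 20 did not pass (background 11.6% lower), with a median log2 fold change of -0.46. With the length and GC trend removed 13 were lower, and the count was 8 without replicate 2 of 6 months and 9 without replicate 2 of 22 months. Mki67 (chromosome 7, 135689784 to 135716450), a chromosome-coating protein of cycling cells, had 237, 149.8 and 196 normalised counts at 22 months, against 306, 598 and 546 at 6 months, a change of -1.28 ± 0.20 (limma adjusted p = 4.95e-04), or -0.92 with the trend removed. Top2a, the topoisomerase that untangles replicated DNA, had 141, 88.1 and 115 at 22 months, against 192, 251 and 214 at 6 months, a change of -0.94 ± 0.14 (limma adjusted p = 4.40e-04). Ccnd2, a G1 cyclin, had 915, 851 and 889 at 22 months, against 1122, 1461 and 1319 at 6 months, a change of -0.55 ± 0.08 (limma adjusted p = 2.82e-04). No 22-month library reached the lowest 6-month library in any of these, and 6 months replicate 1 was the lowest of its age for Mki67, Top2a and Ccnd2.

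Cenpe, a mitotic motor, fell by 1.15 on the log2 scale, with 22.2, 29.4 and 20.7 at 22 months, against 48.9, 58.1 and 56.2 at 6 months. Bub1, a spindle checkpoint kinase, had 9.13, 2.94 and 13.5 at 22 months, against 19.4, 23.2 and 27.2 at 6 months, a change of -1.53 ± 0.36 (limma adjusted p = 0.00720) at counts close to the floor. The replication helicase subunit Mcm6 (-0.64), the chromatin protein Hmgb2 (-0.45) and lamin B1 (Lmnb1, -0.45) were called in every left-out-library fit. Prc1, Kif11, Kif23, Birc5, Cenpf and Cdk1 fell by 0.47 to 0.80 but lost the call without at least 2 of the 6 libraries. Replication genes Mcm2, Mcm3, Mcm5 and Pcna did not pass, with log2 fold changes between -0.18 and 0.13. Trip13, a meiotic and mitotic checkpoint ATPase outside the list, had 2.61, 4.41 and 0 at 22 months, against 11.2, 12.8 and 13.2 at 6 months, a change of -2.31 ± 0.49 (limma adjusted p = 0.00353). Its 22-month values were 3 reads or fewer, a level that a count of 0 also allows, so the size of this change is uncertain. In the 250 bases before the start, 10 of the 27 tested members with a promoter held both TTTGAA, the cell cycle homology element, and CCAAT (37.0%), against 6.45% of all genes in the table. Of the members called lower, 6 of 12 held both. The list was chosen for genes of dividing cells, so these shares do not bear on the age difference.

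Markers of activated stem cells and neuroblasts gave calls that mostly depended on single libraries. Egfr, the growth factor receptor of activated stem cells, had 177, 137 and 130.5 at 22 months, against 175, 230.5 and 203 at 6 months, a change of -0.46 ± 0.14 (limma adjusted p = 0.0243), but -0.09 once the length and GC trend was removed. Of the 15 activated stem cell and progenitor markers 1 was higher (Vim, not called without replicate 3 of 22 months). Lower were 3 (Tnc, Egfr and Notch1), and 11 did not pass. With the trend removed there were 1 higher and 0 lower. Over all tested genes 10.6% were higher and 11.6% lower, or 7.86% and 5.56% of those with a length once the trend was removed. The count of lower members was 1 without replicate 2 or 3 of 22 months or replicate 2 or 3 of 6 months. Sox2, as above, did not pass (limma adjusted p = 0.0954), and neither did Dlx1 or Dlx2. Dcx, a microtubule protein of migrating neuroblasts, had 639, 463 and 533 at 22 months, against 569, 838 and 814 at 6 months, a change of -0.43 ± 0.13 (limma adjusted p = 0.0250), or -0.12 with the trend removed. Replicate 1 of 6 months lay among the 22-month values for both Dcx and Egfr.

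Dpysl3, which acts in axon outgrowth, had 151, 162 and 139.8 at 22 months, against 204, 253 and 235 at 6 months, a change of -0.60 ± 0.10 (limma adjusted p = 7.70e-04), and -0.49 with the trend removed. Dlx6as1, the antisense transcript of the interneuron factor Dlx6, had 374, 325 and 347 at 22 months, against 389, 540.0 and 549 at 6 months, a change of -0.48 ± 0.11 (limma adjusted p = 0.00539). Counting by strand is not given in the sources used here, so its reads may include those of Dlx6, which itself did not pass. Both calls held whichever library was left out. Of 23 tested neuroblast markers 1 (Gad1, also of striatal neurons, not called without replicate 1 of 22 months or replicate 2 or 3 of 6 months) was higher, 8 were lower and 14 did not pass, against 3 higher and 3 lower with the trend removed. The count of lower markers was 3 without replicate 2 of 22 months or replicate 2 or 3 of 6 months and 5 without replicate 1 of 22 months. Stmn2, Tubb3, Igfbpl1 and Cd24a did not pass.

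Several myelin and oligodendrocyte transcripts were lower at 22 months. Of 24 tested markers 0 were higher, 11 were lower and 13 did not pass (median -0.35), and as many (11) were lower once the length and GC trend was removed. The count was 5 without replicate 1 of 22 months or replicate 1 of 6 months and 7 without replicate 3 of 6 months. The summed level of the list was 84206, 108230.0 and 103021 at 22 months, against 142307, 110639 and 113881 at 6 months, so 6 months replicate 1 was the highest library and 22 months replicate 1 the lowest. Gjc3 (chromosome 5, 137950992 to 137963098), a connexin of oligodendrocytes, had 729, 807 and 699 normalised counts at 22 months, against 1107, 1004 and 1053 at 6 months, a change of -0.50 ± 0.09 (limma adjusted p = 0.00104). Myrf, the transcription factor that drives myelin genes, had 675, 929.9 and 819 at 22 months, against 1336, 1125 and 1124 at 6 months, a change of -0.57 ± 0.12 (limma adjusted p = 0.00451). Both genes, with Mal (-0.47) and Tspan2 (-0.52), were called whichever library was left out, while Mag, Cldn11, Mog, Ugt8a, Fa2h and Anln were not.

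Mbp, which encodes a main structural protein of myelin, did not pass, with 31092, 43206 and 41031 at 22 months, against 51500.5, 39879.8 and 39852 at 6 months, and its ages overlapped. Among precursors, Gpr17 (chromosome 18, 31942999 to 31949890), a receptor of committed precursors on the way to myelination, had 250.3, 270.3 and 285 normalised counts at 22 months, against 500.4, 496 and 492 at 6 months, a change of -0.89 ± 0.08 (limma adjusted p = 2.68e-06), or -0.79 with the trend removed. The 3 libraries of each age lay close together and far from the other age. Pdgfra, the receptor of early precursors, had 525, 464 and 434 at 22 months, against 545, 549 and 558 at 6 months and did not pass (limma adjusted p = 0.0809). Of 14 precursor markers 3 were lower, Gpr17, Vcan and Ptprz1 (background 11.6% lower). With the trend removed Gpr17 alone was called (background 5.56% lower). Without 6 months replicate 2 or replicate 3 the count was 1.

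Astrocyte transcripts, shared with quiescent stem cells, were modestly higher or did not pass, with 1 exception. Gfap (chromosome 11, 102887336 to 102897200), the filament protein of reactive astrocytes and stem cells, had 2431, 3297 and 2773 normalised counts at 22 months, against 1625, 1428 and 1386 at 6 months, a change of 0.93 ± 0.13 (limma adjusted p = 3.05e-04). Id2, a target of BMP signalling, rose by 0.57 ± 0.11, and Clu, a secreted chaperone, by 0.30 ± 0.05. Thbs4, a matrix protein enriched in stem cells of this zone, went the other way, with 215, 276 and 227 at 22 months, against 383, 394 and 356 at 6 months, a change of -0.66 ± 0.10 (limma adjusted p = 4.95e-04). Gfap was thus higher and Thbs4 lower in every 22-month library than in every 6-month library. Of 22 markers 9 were higher, 1 (Thbs4) lower and 12 did not pass, and with the trend removed there were 12 higher and 1 lower. Aqp4, the water channel of astrocyte endfeet, had 1115, 1084 and 1093 at 22 months, against 983, 917 and 1023 at 6 months and did not pass.

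Of 20 tested ependymal markers 5 were higher, 0 lower and 15 did not pass (background 10.6% higher and 11.6% lower). Rarres2, which encodes chemerin, had 507, 545 and 507 at 22 months, against 357, 367 and 393 at 6 months, a change of 0.48 ± 0.08 (limma adjusted p = 9.85e-04). Tmem212, Ccdc153 and Rsph1, of motile cilia or ependymal cells, rose by 0.77, 0.50 and 0.57. Once the length and GC trend was removed 4 higher and 0 lower were called, without these 3 (median 0.21, against 0.22 without that step). Foxj1, the master factor of motile cilia, had 533, 522 and 603 at 22 months, against 465, 526 and 446 at 6 months and did not pass.

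Several glucocorticoid-responsive transcripts were lower at 22 months than at 6 months. In the series, 6 months held the highest means of Zbtb16, Tsc22d3, Hif3a and Sgk1. Corticosterone acts through the glucocorticoid receptor on these genes in many brain cell types. Zbtb16 (chromosome 9, 48651797 to 48836225), a zinc finger transcription factor, had 40.4, 38.2 and 37.3 normalised counts at 22 months, against 144, 194 and 133 at 6 months, a change of -1.97 ± 0.23 (limma adjusted p = 6.18e-05). Tsc22d3, which encodes the anti-inflammatory protein GILZ, had 310.3, 373 and 387 at 22 months, against 733, 664 and 555 at 6 months, a change of -0.86 ± 0.13 (limma adjusted p = 5.01e-04). Hif3a had 67.8, 47.01 and 42.5 at 22 months, against 136, 170.1 and 141 at 6 months, a change of -1.51 ± 0.28 (limma adjusted p = 0.00162). The ages were fully separated in all 3 genes. Sgk1, a kinase of ion transport, fell by 0.59, and Plin4 and Per1 fell by 1.25 and 0.48, with the Plin4 call lost without replicate 3 of 22 months or replicate 2 of 6 months and that of Per1 without replicate 1 of 22 months or replicate 2 or 3 of 6 months. Of 15 tested members 1 (Mt1) was higher, 6 were lower and 8 did not pass, and with the trend removed there were 0 higher and 6 lower. Fkbp5, the co-chaperone of the receptor and a widely used target, did not differ past the threshold, with 449.8, 455 and 402 at 22 months, against 453, 463 and 419.9 at 6 months and a log2 fold change of -0.03 ± 0.11 that turned to 0.02 without 22 months replicate 3.

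**Figure D3:**
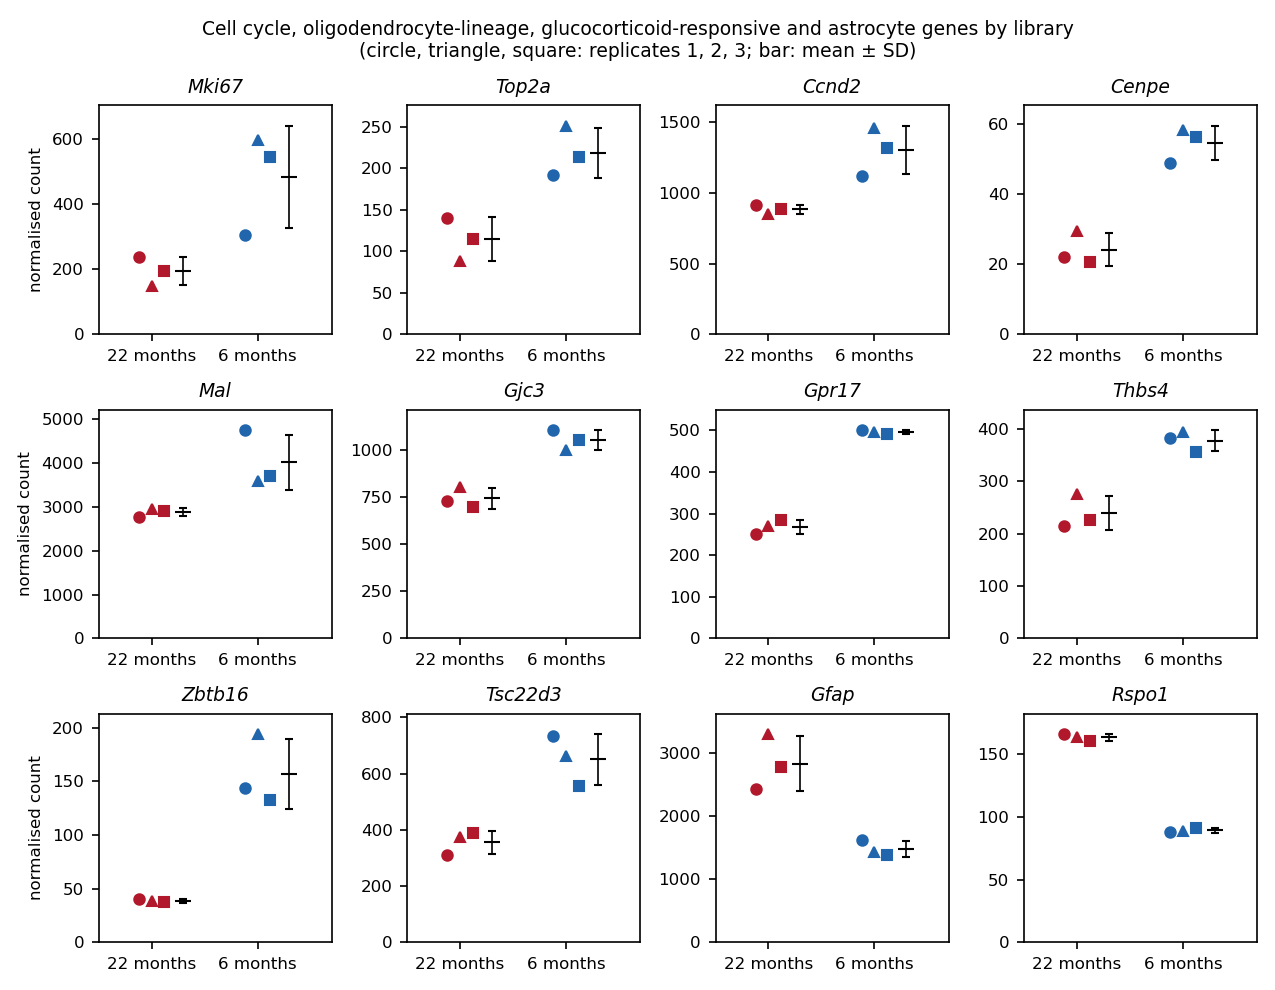
Normalised counts of 12 genes in each library, 22 months (red) left of 6 months (blue), with replicates 1, 2 and 3 as circle, triangle and square and the mean ± SD (n = 3) beside them; axes start at 0. Gfap and Rspo1 are higher and the other 10 genes lower in all 22-month libraries, with Gpr17 at 250.3, 270.3 and 285 at 22 months against 500.4, 496 and 492 at 6 months.

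Neuronal transcripts split by gene. Of 22 markers of striatal projection neurons 9 were higher, 0 lower and 13 did not pass, with small changes (median 0.15), and once the length and GC trend was removed 10 higher and 0 lower. The count was 4 without replicate 2 of 22 months or replicate 2 or 3 of 6 months and 5 without replicate 3 of 22 months. Adora2a, the adenosine receptor of indirect-pathway neurons, had 3974, 4249 and 3918 at 22 months, against 3343, 3186 and 3209 at 6 months, a change of 0.32 ± 0.06 (limma adjusted p = 0.00123). Tac1, the substance P precursor of direct-pathway neurons, rose by 0.39 ± 0.09, and Ppp1r1b, which encodes DARPP-32, had 17346, 19024 and 18732 at 22 months, against 17487, 16292 and 15975 at 6 months and did not pass. Of 26 pan-neuronal and synaptic genes 8 were higher, 6 lower and 12 did not pass (median 0.04, background 10.6% higher and 11.6% lower). With the trend removed 7 were higher and 4 lower. The higher count was 3 without replicate 2 of 6 months, 4 without replicate 2 of 22 months or replicate 3 of 6 months and 5 without replicate 3 of 22 months, and the lower count was 3 without replicate 2 or 3 of 6 months.

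The vesicle fusion protein gene Snap25 had 11535, 11478 and 11352 at 22 months, against 10036, 9323 and 9711 at 6 months, a change of 0.24 ± 0.05 (limma adjusted p = 0.00273). Grin1, a subunit of NMDA glutamate receptors, had 3516, 3729.9 and 3519 at 22 months, against 4462, 4537 and 4518 at 6 months, a change of -0.33 ± 0.05 (limma adjusted p = 2.38e-04), and Grin2b, another subunit, had 160.4, 126 and 135 at 22 months, against 220.1, 665 and 627 at 6 months, a change of -1.68 ± 0.35 (limma adjusted p = 0.00320). Grin2a, also a subunit, fell by 1.04, and was -0.52 with the trend removed. Grin2b was far higher in replicates 2 and 3 of 6 months than in replicate 1, and its change was -1.02 with the length trend removed. Slc17a7, the vesicular glutamate transporter of cortical neurons, had 16.9, 23.5 and 15.5 at 22 months, against 158, 54.00 and 28.99 at 6 months, and with this spread at 6 months its log2 fold change of -1.72 did not pass (limma adjusted p = 0.0957). Its part, as a marker of cells from outside the zone, in the neuronal values was not tested.

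Genes of the ribosome and of respiration rose by small steps. Of 60 tested cytosolic ribosomal protein genes 57 were higher, 0 lower and 3 did not pass (median 0.32), and once the length and GC trend was removed 19 were higher (median 0.12). Of 65 subunits of the respiratory chain and ATP synthase 53 were higher, 0 lower and 12 did not pass (median 0.29), against 13 with the trend removed (median 0.10), and the count was 24 without replicate 2 or 3 of 6 months and 35 without replicate 2 or 3 of 22 months. The median transcript length of these lists was 1108 and 1141 nt, against 3422 nt for all tested genes with a length. Rplp1, of the ribosomal stalk, had 3766, 3849 and 3753 at 22 months, against 3083, 2739.8 and 2639.9 at 6 months, a change of 0.43 ± 0.06 (limma adjusted p = 2.82e-04), or 0.17 with the trend removed. Uqcrb, a subunit of complex III, had 829, 726 and 721 at 22 months, against 542, 453 and 488 at 6 months, a change of 0.62 ± 0.09 (limma adjusted p = 4.13e-04), or 0.34 with the trend removed.

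Of 36 lysosomal genes 19 were higher, 1 (Npc1) lower and 16 did not pass (median 0.20), and with the trend removed there were 14 higher and 0 lower. Ctsh, a cathepsin, rose by 0.72 ± 0.12. Among metallothioneins and antioxidant enzymes 11 of 28 were higher and 0 lower, against 7 higher and 0 lower with the trend removed. The count was 7 without replicate 2 or 3 of 6 months. Gstm1, a glutathione transferase, had 2164, 2694 and 2678 at 22 months, against 1841, 1799 and 1743 at 6 months, a change of 0.48 ± 0.07 (limma adjusted p = 3.21e-04), and Mt3, the metallothionein of brain, had 1659.6, 1804 and 1804 at 22 months, against 1354, 1255 and 1271 at 6 months, a change of 0.44 ± 0.06 (limma adjusted p = 3.57e-04).

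Niche signals were called in both directions. Over all tested genes 10.6% were higher and 11.6% lower. With the length and GC trend removed these shares were 7.86% and 5.56% of genes with a length. WNT ligands and R-spondins sustain progenitors, and BMP ligands hold stem cells in quiescence. Rspo1 (chromosome 4, 124986401 to 125009102), which strengthens WNT signals at the receptor, had 166, 163 and 161 normalised counts at 22 months, against 87.6, 88.3 and 91.4 at 6 months, a change of 0.86 ± 0.12 (limma adjusted p = 2.04e-04). Wnt7b had 236, 256 and 278 at 22 months, against 143, 164 and 168 at 6 months, a change of 0.69 ± 0.11 (limma adjusted p = 4.95e-04), and Dkk3 rose by 0.44 ± 0.06 and Sfrp5, a secreted WNT antagonist, by 0.83 ± 0.21. Of 30 tested WNT genes 5 were higher, 1 (the receptor gene Fzd3) lower and 24 did not pass, and with the trend removed there were 7 higher and 0 lower. Fzd3 then had a log2 fold change of 0.15, against -0.31 without that step.

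Bmp7 had 154, 166 and 151 at 22 months, against 79.5, 90.6 and 83.5 at 6 months, a change of 0.89 ± 0.14 (limma adjusted p = 4.71e-04), and Bmp6 rose by 0.58 ± 0.17, a call lost without replicate 2 or 3 of 22 months or replicate 2 of 6 months. The receptors Tgfbr2 and Acvr1 rose by 0.47 and 0.32, the second not called without replicate 3 of 6 months. Of 29 tested BMP and TGF-beta genes 5 were higher, 2 (Bmpr2 and Acvr2a) lower and 22 did not pass. The background was 10.6% higher and 11.6% lower. With the trend removed there were 8 higher and 0 lower. The count of lower genes was 0 without replicate 2 of 22 months or replicate 2 or 3 of 6 months and 1 without replicate 3 of 22 months. In the Notch and Hedgehog list 2 of 27 were higher (the Notch targets Hey1, 0.33, and Hes1, 0.80, not called without replicate 1 of 22 months or replicate 2 of 6 months) and 5 lower, among them Hhip (-0.64), which binds and limits Hedgehog ligands. With the trend removed 2 higher and 1 lower were called, and neither Hes1 (0.63) nor Hhip (-0.33) was among them. The count of lower genes was 1 without replicate 2 or 3 of 6 months, 2 without replicate 2 or 3 of 22 months and 3 without replicate 1 of 22 months.

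Among growth factors and their receptors 5 of 32 tested were higher and 2 lower, against 10.6% higher and 11.6% lower over all tested genes. The higher count was 1 without replicate 2 of 6 months and 3 without replicate 2 of 22 months or replicate 3 of 6 months. Vegfa, the vascular growth factor, had 853, 953 and 886 at 22 months, against 726, 676 and 705 at 6 months, a change of 0.35 ± 0.06 (limma adjusted p = 0.00131). The receptor genes Igf2r and Igf1r fell by 0.58 and 0.44, and were -0.27 and -0.02 with the trend removed. In the extracellular matrix list 3 of 37 were higher and 11 lower, against 4 higher and 2 lower with the trend removed, and its median length was 6046 nt. The lower count was 7 without replicate 2 or 3 of 6 months. Sparc, a collagen-binding matricellular protein, had 2836, 2901 and 2978 at 22 months, against 2236, 1857 and 1978 at 6 months, a change of 0.53 ± 0.07 (limma adjusted p = 2.83e-04), while the heparan sulfate proteoglycan Agrn fell by 0.40 and was -0.10 with the trend removed.

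**Figure D4:**
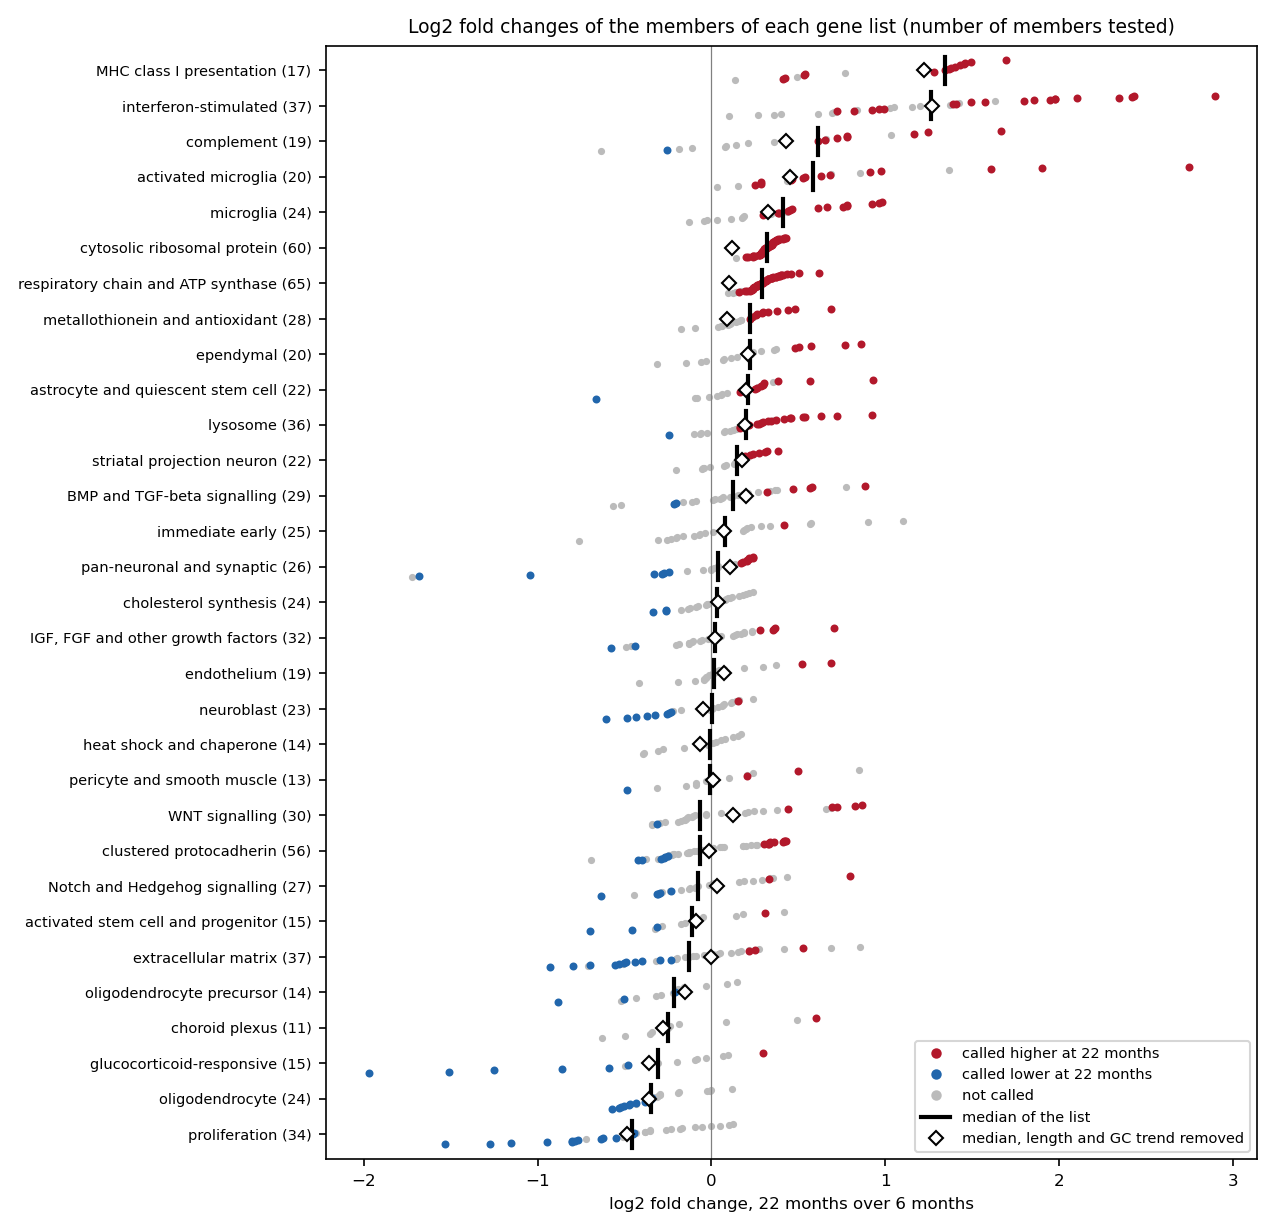
Log2 fold changes (22 months over 6 months) of the tested members of each list with at least 10 tested members, ordered by median, with called higher (red), called lower (blue) and not called (grey) members. The bar is the median and the diamond the median once the length and GC trend was removed. MHC class I (1.34) and interferon-responsive genes (1.26) have the highest medians, proliferation (-0.46) the lowest, and the ribosomal and respiratory lists have their diamonds at 0.12 and 0.10, nearer to 0 than their bars.

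The remaining lists gave few calls in number. Over all tested genes 10.6% were higher and 11.6% lower, and the shares of several of these lists lay near that. In the endothelium list 2 of 19 were higher, Cldn5, a tight junction protein of brain vessels, with 262, 294 and 261 at 22 months, against 168, 148 and 192 at 6 months, a change of 0.69 ± 0.14 (limma adjusted p = 0.00346), and Kdr, whose call was lost without replicate 2 or 3 of 22 months or replicate 2 or 3 of 6 months. Pericyte and smooth muscle markers had 2 higher (Vtn, 0.50, and Myl9, not called without replicate 1, 2 or 3 of 22 months or replicate 2 or 3 of 6 months) and 1 lower (Myh11, -0.48) of 13. Cholesterol synthesis had 0 higher and 3 lower of 24 (Hmgcs1, Lss and Idi1, by 0.26 to 0.34), and the count was 1 without replicate 2 of 6 months. Fibroblast (7 tested), erythroid (5) and heat shock (14) lists had 0 calls by limma, with 2, 0 and 5 members at an unadjusted p under 0.05. edgeR and DESeq2 on the recovered reads called 0 and 0 in the fibroblast list, 0 and 0 in the erythroid list, and 2 and 2 in the heat shock list. The heat shock count by limma rested on single libraries in both directions, with 3 higher without replicate 1 of 6 months, 3 lower without replicate 3 of 6 months and 1 lower without replicate 1 of 22 months. The near-identical copies Hspa1a and Hspa1b, which encode HSP70 and share reads, had log2 fold changes of -0.40 and -0.39 and were called lower once the trend was removed (-0.43 and -0.44). Choroid plexus had 1 of 11 higher (1500015O10Rik, lost without replicate 1 or 3 of 22 months or replicate 1, 2 or 3 of 6 months). Its main product Ttr had 1544, 569 and 1488 at 22 months, against 2054, 608 and 1544 at 6 months, so both ages spanned nearly the same range. In the immediate early list, which tracks stimulation before or during dissection, 1 of 25 was higher (Ier5, lost without replicate 2 or 3 of 22 months or replicate 2 or 3 of 6 months), and 9 were without replicate 1 of 22 months. The summed level of that list was 8249.8, 21210.3 and 22622 at 22 months, against 13209, 17904 and 17775 at 6 months, lowest in the library with the highest interferon sum. In the list of cell cycle inhibitors and senescence markers 1 of 9 was higher (Cdkn2d, 0.32, lost without replicate 3 of 22 months or replicate 3 of 6 months). Cdkn1a, a cell cycle inhibitor, had 138, 137 and 141 at 22 months, against 162, 145 and 138 at 6 months and did not pass, and Cdkn2a, the senescence marker that encodes p16, was at 2.61, 0 and 0 at 22 months, against 0, 1.74 and 0 at 6 months, too low for a difference to be detectable.

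The values at 2 and 18 months show where each change lay in the series, with the caution that these comparisons share libraries with the one at 22 and 6 months. Lyz2 had 65.9 ± 7.16, 66.1 ± 14.3, 145 ± 6.12 and 201 ± 17.4 normalised counts at 2, 6, 18 and 22 months (SD, n = 3 each), and log2 fold changes of 1.14 (adjusted p = 0.00190) for 18 over 6 months and 0.47 (0.0291) for 22 over 18 months, by limma. Clec7a had 10.4 ± 3.37, 7.001 ± 2.56, 30.5 ± 0.451 and 51.6 ± 12.02 at the same ages. Gpr17 had 723 ± 53.7, 496 ± 4.23, 367 ± 22.8 and 268 ± 17.3, and changes of -0.44 (adjusted p = 0.0229) for 18 over 6 months and -0.45 (0.00106) for 22 over 18 months, by limma. For Lyz2 the libraries of 2 and 6 months overlapped and each later age lay higher, and for Gpr17 each age lay below the one before it.

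Zbtb16 did not follow age in one direction, with 54.01 ± 15.2, 157 ± 32.7, 100.3 ± 36.2 and 38.6 ± 1.61 at 2, 6, 18 and 22 months. Its mean was highest at 6 months, and its log2 fold change for 22 over 2 months, -0.44, did not pass (limma adjusted p = 0.142). Tsc22d3, Hif3a and Sgk1 also had their highest means at 6 months. At 2, 6 and 22 months the means were 423, 651 and 357 for Tsc22d3 and 61.7, 149 and 52.4 for Hif3a. Those of Sgk1 were 730, 1205 and 797. Their log2 fold changes for 22 over 2 months, -0.23, -0.17 and 0.13, did not pass (limma adjusted p = 0.191, 0.667 and 0.426). Gjc3 had 1129 ± 127, 1055 ± 51.5, 1171 ± 122 and 745 ± 55.5, and changes of 0.15 (adjusted p = 0.654) for 18 over 6 months and -0.65 (2.99e-04) for 22 over 18 months, by limma. Ahnak, a giant scaffold protein gene of 18100.0 nt, had 3052 ± 111, 3757 ± 635, 3505 ± 556 and 1505 ± 43.4, and changes of -0.10 (adjusted p = 0.844) for 18 over 6 months and -1.21 (5.76e-06) for 22 over 18 months, by limma. Both were lower in each 22-month library than in any library of the other ages. Rspo1 had 54.3 ± 7.51, 89.1 ± 1.99, 108 ± 4.14 and 163 ± 2.52, higher at each age.

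**Figure D5:**
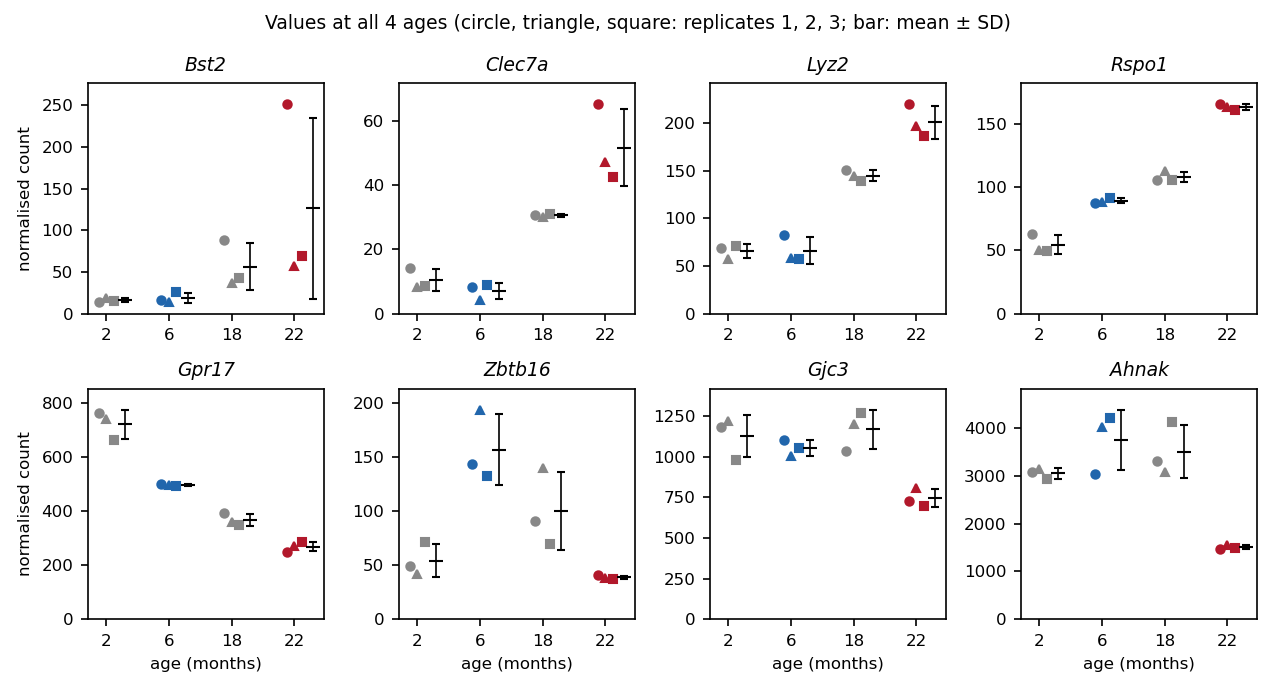
Normalised counts of 8 genes at 2, 6, 18 and 22 months (x axis, in age order), with replicates 1, 2 and 3 as circle, triangle and square, the mean ± SD (n = 3) beside them, 22 months in red and 6 months in blue; axes start at 0. Gjc3 and Ahnak are low at 22 months alone, Zbtb16 is highest at 6 months, and Lyz2, Clec7a and Rspo1 are highest at 22 months.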

How the data were processed

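RNA of 12 mouse subventricular zone libraries was sequenced in bulk, and 6 of them, 3 at 22 months and 3 at 6 months, are compared. The authors deposited 1 table of signal values, normalised read counts with 1 column per library; the submitters' processing notes name DESeq2 and mm10, and the aligner, counter, annotation and strandedness are not given in the sources used here. Each value was a whole multiple of its column's unit (100% within 1e-06), so whole reads could be recovered. 1 further column, the authors' deposited log2 comparison, was not used. Of 23725 genes, 456 had no symbol and 27 a symbol turned into a date.

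A gene was tested if 3 or more of the 12 libraries held 10 or more normalised counts of it (15663 genes), with limma 3.58.1 (R 4.3.3) on log2(normalised count + 1), eBayes with an intensity trend, two-sided, all 12 libraries with 1 mean per age, and Benjamini-Hochberg adjustment over all tested genes. The 2- and 18-month libraries enter through that filter and the estimate of spread. A fold change on this scale understates that of low genes. Fold changes are given ± standard error, for means of 3 against 3 libraries with a spread estimated over all 12 libraries and moderated across genes. A larger spread at a single age, such as that of Oasl2 at 22 months, is therefore averaged with the other ages. The test was checked on simulated data. edgeR 4.0.16 and DESeq2 1.42.0 on the recovered reads, filters, pseudocounts (0.5 and 4), TMM, 6 or 9 libraries, leaving out each library, the replicate block and removal of a smooth trend over length and GC content (mgcv 1.9.3) were alternatives. Gene positions were taken from RefSeq, GRCm38.p6 (23662 IDs matched). Length and GC content are those of the longest GENCODE vM21 transcript and cover 94.8% of tested genes.

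The 36 gene lists, the comparison and the alternatives were chosen with earlier results of these data known. Genes are named by rule: the 12 largest changes in each direction among called genes whose ages did not overlap and that have a proper symbol, the 5 smallest p in each direction, the 4 lowest p values in each list, and a panel of 30. A few genes that the rule names are not reported here. Other members named were chosen after their values were seen. List members were matched by the table's symbol or by the RefSeq symbol of the same ID.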

Additional observations from a re-analysis of the deposited data

How the results depend on the processing

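Removing the length and GC trend moved the count of called genes to 1993 and that of lower genes to 826 (higher 1167). Leaving out one library gave 1790 to 3886 called genes, 771 to 1921 higher and 1019 to 1965 lower. The cause was not tested, and those fits have fewer samples. The other alternatives stayed within 1.5 times of 3480, between 2532 (no intensity trend) and 3495 (pseudocount 4), with 3467 by edgeR and 2914 by DESeq2 on the recovered reads and 3424 (1376 higher, 2048 lower) with TMM scaling. With the replicate number as a block there were 3125, and the numbers do not pair the samples: correlations of same-numbered libraries were -0.0186, 0.0201 and -0.0156, and 1 of 3 correlated best with its own number. Of 133 called named genes 93 were called in the same direction under each of the 18 alternatives that gave a value, and 10 to 19 lost the call without a given library other than 6 months replicate 1 (4). Signs turned once the length and GC trend was removed for Notch1 0.0348, Ptprz1 0.0487, Hbb-bt (no symbol in the table) -0.0825, Beta-s -0.0935, Hba-a2 -0.0835, Fzd3 0.153 (log2 fold changes). They also turned on leaving out one library, where the values ranged -0.283 to 0.1498 for Cd8b1, -0.0124 to 0.839 for Fmod, -0.396 to 0.145 for Dcn, -0.00334 to 0.470 for Slc4a1, -0.704 to 0.283 for Ttr, -0.0738 to 0.0248 for Fkbp5. Of these genes Notch1, Ptprz1 and Fzd3 were called, and the cause was not tested. Low depth limits genes near 3 reads, such as Cd3e and Cdkn2a. Capn11 was at 0 in each 22-month library and scattered widely at 6 months (11.2, 37.7 and 0.879).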

Other observations

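Genes with the smallest p in the comparison, named by rule whatever their function, included a group of neighbours on chromosome 17. Tmem181a (chromosome 17, 6256726 to 6308314) had 4736, 4416 and 4164 normalised counts at 22 months, against 2477, 2669 and 2639.9 at 6 months, a change of 0.77 ± 0.05 (limma adjusted p = 6.95e-07), higher in 3 of 3 libraries. Its copies Tmem181b-ps (chromosome 17, 6439002 to 6450994) and Tmem181c-ps (chromosome 17, 6610103 to 6620925) rose by 0.75 ± 0.06 and 0.83 ± 0.05, and Dynlt1a (chromosome 17, 6306344 to 6317520), a dynein light chain gene with similar copies nearby, by 0.78 ± 0.06. The copies share sequence, so their reads may be counted for more than one of them. No strain is labelled at 6 or 22 months, so a difference in strain was not tested. Tmem181a averaged 2759, 2595 and 2557 at 2, 6 and 18 months, and 4439 at 22 months.

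Clustered protocadherins, adhesion proteins that give neurons their identity, were called in both directions. Of 56 tested 11 were higher and 6 lower, against 10.6% higher and 11.6% lower over all tested genes. Once the length and GC trend was removed 12 were higher and 0 lower. All 11 higher members were beta genes, such as Pcdhb5 with 514, 520.0 and 522 normalised counts at 22 months, against 378, 401 and 435 at 6 months, a change of 0.36 ± 0.08 (limma adjusted p = 0.00594). The beta genes are similar in sequence and neighbours, so they are not independent. The higher count was 5 without replicate 2 of 22 months and 6 without replicate 1 of 6 months, and the lower count was 0 without replicate 2 of 6 months and 1 without replicate 1 or 3 of 22 months or replicate 3 of 6 months.

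Several of the largest changes by fold had few reads. Zan had 0, 0 and 4.14 normalised counts at 22 months, against 26.5, 12.2 and 13.2 at 6 months, a change of -3.32 ± 0.63 (limma adjusted p = 0.00180), Pde11a had 0, 0 and 2.07 at 22 months, against 4.08, 4.64 and 10.5 at 6 months (its call lost without replicate 3 of 6 months), and Calcr, the calcitonin receptor, had 1.30, 1.47 and 2.07 at 22 months, against 31.6, 8.71 and 5.27 at 6 months, with its call lost without 6 months replicate 1. Capn11 had 0 in each 22-month library, against 11.2, 37.7 and 0.879 at 6 months, and BB014433 had 1.30, 14.7 and 10.4 at 22 months, against 0 in each 6-month library. Both calls were lost without 5 of the 6 libraries. Tmem239, Proser2, Mir208b and Ly9 had at most 23.5 normalised counts in these 6 libraries. Better covered decreases were those of Kcng3, a potassium channel subunit, with 6.52, 14.7 and 10.4 at 22 months, against 19.4, 72.6 and 58.9 at 6 months, a change of -2.02 ± 0.43 (limma adjusted p = 0.00385) and Igsf9b (-1.92 ± 0.31, -1.35 with the trend removed). Of the decreases with the smallest p, Ahnak, Mdn1 and Ryr1 were smaller with the trend removed, with -1.30, -1.02 and -0.85 as fitted and -0.70, -0.42 and -0.29 after it, while Otof, the otoferlin gene, had -0.89 and -0.65.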
